A study of Mus musculus with 10 samples.

Results

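Mast cells are tissue-resident immune cells that store proteases and histamine in granules. Described here are 33 genes of cholesterol synthesis, its control by sterol-sensing factors, and cholesterol uptake, esterification and efflux, as measured in mast cells of the mouse lower airway. The members were chosen by gene symbol and pathway step. All 33 were among the 22815 gene symbols of the count table, and 31 of them were among the 10533 genes with enough counts to be tested. The exceptions were Nr1h3, with 3 counts over all 10 libraries, and Tm7sf2, with 54. The 4 groups were B7hi and B7low mast cells of wild-type C57BL/6 mice aged 5 to 7 weeks, each after intranasal saline or house dust mite (HDM) extract. Every dose was 20 µL, with 3 µg of HDM extract in the HDM groups, and doses were given 2 times per week for 3 weeks. Each saline group had 2 libraries and each HDM group 3. B7hi and B7low are the marker levels by which the labels tell the sorted populations apart, and the mice carried no transgene. The labels do not say whether libraries of a group came from separate mice or from pools, so the p-values below measure the spread between libraries, which may be technical.

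Cells make cholesterol from acetyl-CoA through mevalonate, isoprenoid units, squalene and lanosterol. When sterols in the endoplasmic reticulum are low, the carrier protein encoded by Scap takes SREBP transcription factors to the Golgi, where they are cut and released to raise the synthesis genes. The Insig proteins hold Scap back when sterols are plentiful. Excess sterol activates the LXR receptors, which raise the efflux transporters encoded by Abca1 and Abcg1, the lipid carrier Apoe and Mylip, a ubiquitin ligase that removes lipoprotein receptors from the cell surface. These statements are background from general knowledge of the pathway.

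Total counts ran from 525983 to 1725818 per library, so that a count of 0 in a library allows a level of up to 1.57 to 5.87 CPM, counting error only. CPM are counts scaled to a common library size after TMM normalisation. The 6 mast cell markers summed to 11114 to 21113 CPM in B7hi and 24017 to 43217 CPM in B7low libraries. Cpa3 was the largest part of that sum in every library, and Ms4a2 overlapped, at 766 to 926 CPM in B7hi and 640 to 1130 CPM in B7low. The sum of the 3 basophil markers was apart the other way, at 1612 to 2812 CPM in B7hi and 605 to 1320 CPM in B7low. Mcpt8 was at 691 to 1552 and 57.7 to 383 CPM, and Ifitm1 at 681 to 1242 and 50.7 to 492 CPM. Cd200r3 went against that sum, at 31.7 to 244 CPM in B7hi and 315 to 497 CPM in B7low. Both sums thus moved with the population under both challenges, but not every marker in them did. B7low saline 2 and B7hi HDM 2 stood apart from the others, with the long non-coding RNA Kcnq1ot1 at 6956 and 12133 CPM against 806 to 2794 CPM elsewhere. Results that rest on these libraries are given below with and without both. Summed B cell markers were at 77.1 to 548 CPM in B7low HDM libraries and at most 62.6 CPM elsewhere. Summed epithelial markers were at 10.5 to 26.8 CPM in B7low saline libraries and 57.9 to 187 CPM elsewhere. Cdh1 made up most of that sum in every library, while Epcam and Krt8 were at 2.71 CPM or less throughout. The part of any of these marker sets in the results was not tested.

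With saline, 4 of the 31 tested members differed between B7hi and B7low (12.9%), against 6.54% of all tested genes. Hmgcs1, Insig2 and Scarb1 were higher in B7hi and Apoe was lower, where 2.91% of all tested genes were higher and 3.64% lower. The split of 3 higher and 1 lower became 1 and 2 with DESeq2 size factors, 3 and 3 with DESeq2, and 6 and 1 with library size alone. The tests were edgeR quasi-likelihood tests with Benjamini-Hochberg adjustment over all 10533 genes and a threshold of 0.05, as everywhere in this text. Without B7low saline 2 and B7hi HDM 2, the count was again 4, but of other composition: Scarb1 was higher, and Apoe, Mylip and Soat1 were lower. The median log2 fold change of the members was 0.96, against 0.03 over all tested genes. For 21 members (67.7%) the lowest library of 1 group was above the highest of the other in CPM, against 51.9% of all tested genes. With HDM, Apoe was the 1 member called (3.23%, against 2.84% of all tested genes), and 2 of 31 members had ranges apart (6.45%, against 20.5%). In the mean of both challenges, which gives saline and HDM equal weight, 6 of 31 members were called (19.4%, against 11.9%). Scarb1, Hmgcs1, Cyp51 and Insig2 were higher in B7hi, and Apoe and Mylip were lower, where 5.8% of all tested genes were higher and 6.08% lower. That count was 3 without B7low saline 2 and B7hi HDM 2, namely Scarb1, Apoe and Mylip.

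**Figure D1:**
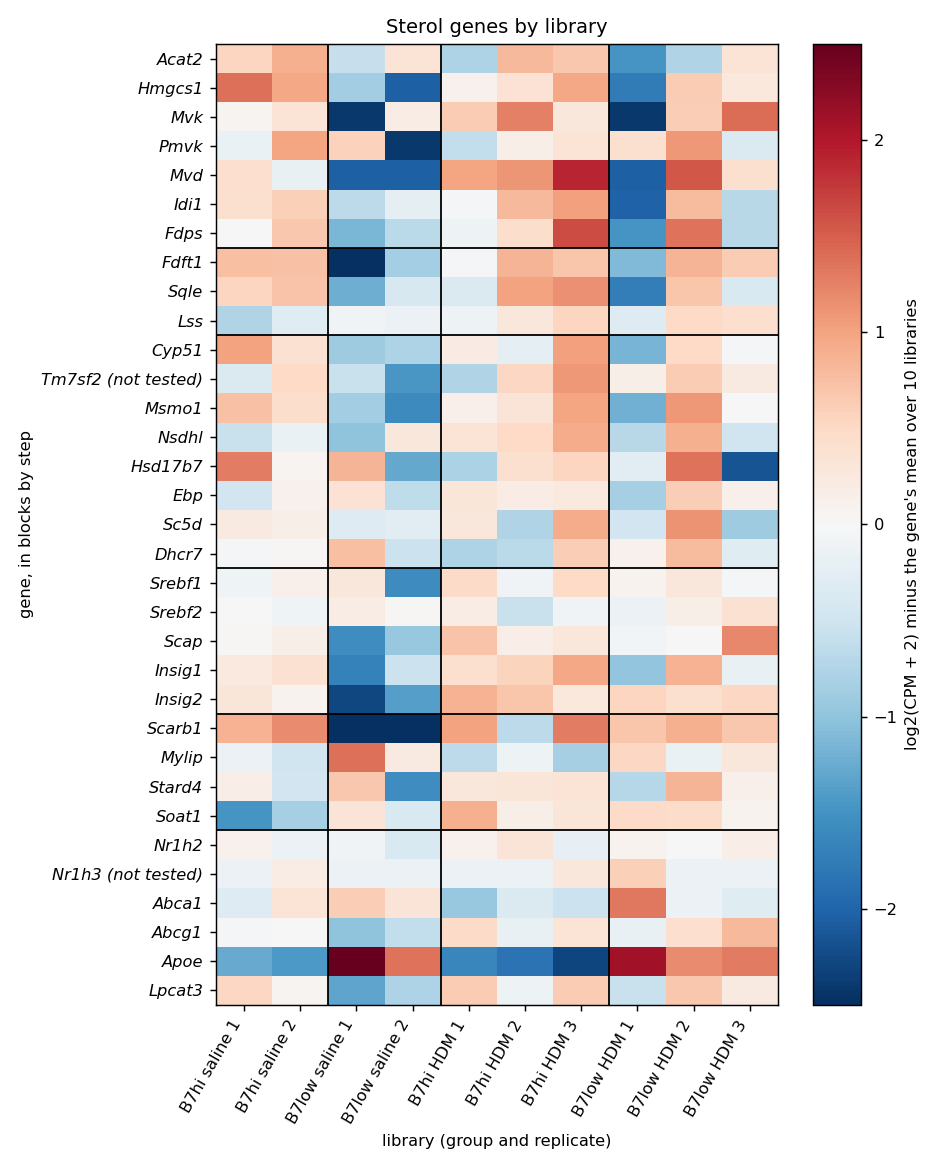
Levels of the 33 members (rows, by step of the pathway) in the 10 libraries (columns), as log2(CPM + 2) minus the gene's mean over libraries, with colours limited at ±2.5. Apoe is low in all 5 B7hi libraries and high in all 5 B7low libraries, and most synthesis genes are low in both B7low saline libraries and in B7low HDM 1. In B7low HDM 3, 14 of the 17 tested synthesis genes are below the gene's median over libraries.

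The upstream sequences of the called members with an entry in the RefSeq promoter table for GRCm38.p6 show where the letters read by known regulators occur. Each is printed 5′ to 3′ on the strand of the gene, as the 250 bases that end just before the start site. Capitals mark matches on either strand to a single form of the SREBP element, TCACNCCAC, and to the CCAAT box. The CCAAT box is the site of the factor NF-Y, which is known to act with SREBP. CCAAT on the opposite strand reads ATTGG.
Hmgcs1, chr13:119690101-119690350, + strand: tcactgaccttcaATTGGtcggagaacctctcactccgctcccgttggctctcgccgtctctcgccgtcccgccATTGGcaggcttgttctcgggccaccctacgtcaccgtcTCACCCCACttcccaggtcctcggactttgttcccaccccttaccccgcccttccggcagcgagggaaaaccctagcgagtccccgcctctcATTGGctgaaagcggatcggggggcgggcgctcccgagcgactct
Cyp51, chr5:4104698-4104947, − strand: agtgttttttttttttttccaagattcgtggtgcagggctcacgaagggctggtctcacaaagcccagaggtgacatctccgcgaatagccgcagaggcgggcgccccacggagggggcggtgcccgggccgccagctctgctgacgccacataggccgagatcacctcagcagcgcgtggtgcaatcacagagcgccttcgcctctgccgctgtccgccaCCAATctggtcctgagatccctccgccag
Insig2, chr1:121332590-121332839, − strand, 1 of its 3 entries: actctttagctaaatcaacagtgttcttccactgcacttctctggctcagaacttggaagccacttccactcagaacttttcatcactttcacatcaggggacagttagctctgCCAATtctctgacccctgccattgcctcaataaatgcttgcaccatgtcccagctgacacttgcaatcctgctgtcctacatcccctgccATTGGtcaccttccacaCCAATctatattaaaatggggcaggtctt
Mylip, chr13:45389492-45389741, + strand: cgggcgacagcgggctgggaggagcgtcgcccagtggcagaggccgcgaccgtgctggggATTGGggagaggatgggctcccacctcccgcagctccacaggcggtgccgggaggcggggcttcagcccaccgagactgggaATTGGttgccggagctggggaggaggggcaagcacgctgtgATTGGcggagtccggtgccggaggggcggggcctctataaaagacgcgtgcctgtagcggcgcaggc
In windows of 250 bases before to 50 after the start site, 27 of the 33 members matched 38 promoters in the table. This form of the SREBP element occurred in 1 member promoter, that of Hmgcs1 at 137 bases before the start, and in 1.24% of all 32851 promoters. Other forms were not searched, so lower-case letters do not show that a promoter lacks an SREBP element. CCAAT occurred on either strand in 22 of the 38 (57.9%) and in 37.4% of all promoters. Of the 15 matched synthesis genes, 14 held a CCAAT, as did 7 of the 12 other matched members and 41.1% of all 27025 genes in the table. The 3 Apoe entries and the other entries of Insig2 held neither motif and are not printed, so that the marked Insig2 matches belong to 1 of its 3 entries. A form of the LXR response element, AGGTCA repeated after a spacer of 4 bases and searched on both strands, occurred in 0 of the 38 and in 0.0152% of all. With only 5 promoters holding it anywhere, its absence from the member promoters carries no information. The searched motifs do not overlap in the Hmgcs1 promoter. A match is a description of these letters and not a measured site.

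Among the synthesis enzymes, Hmgcs1 had the highest level per length, 34.3 CPM per kilobase of exon as the mean of 10 libraries. It encodes the cytosolic synthase that makes HMG-CoA, the precursor of mevalonate (chromosome 13, 119690379 to 119708260, GENCODE M21 on GRCm38). Hmgcs1 stood at 324 and 244 CPM in B7hi saline, 66.4 and 28.4 CPM in B7low saline, 134, 159 and 244 CPM in B7hi HDM, and 35.2, 193 and 148 CPM in B7low HDM. The saline groups did not overlap, while the HDM groups did, with B7low HDM 1 at the level of the B7low saline libraries. With saline the log2 fold change of B7hi over B7low was 2.58 ± 0.67 (SE, edgeR adjusted p = 0.046), and with HDM 0.49 ± 0.49 (adjusted p = 0.75). The mean of both was 1.54 ± 0.42 (adjusted p = 0.037). Both calls were lost without B7low saline 2 and B7hi HDM 2, at 2.09 (adjusted p = 0.28) and 1.31 (adjusted p = 0.18). The saline call was lost in 10 of the 19 alternatives, and the call in the mean in 7 of 18.

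Cyp51, the lanosterol demethylase, lies on chromosome 5 (4081145 to 4104746). It stood at 190 and 122 CPM in B7hi saline, 49.0 and 53.5 CPM in B7low saline, 108, 78.3 and 190 CPM in B7hi HDM, and 40.7, 132 and 89.7 CPM in B7low HDM. As for Hmgcs1, the saline groups were apart and the HDM groups overlapped. For Cyp51, B7low HDM 1 was the lowest of the 10 libraries. Cyp51 passed in the mean of both challenges alone (1.06 ± 0.32, adjusted p = 0.045), with 1.60 ± 0.51 in saline (adjusted p = 0.077) and 0.52 ± 0.39 with HDM (adjusted p = 0.64). That call was lost in 10 of 18 alternatives, at an adjusted p of up to 0.19 without B7hi saline 1, and was at 0.093 without both libraries that stood apart.

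The other 15 tested enzymes did not pass in any contrast. Among those of the mevalonate and isoprenoid steps, Idi1, the isomerase that makes the second isoprenoid unit, was at 81.6 and 94.5 CPM in B7hi saline and 38.5 and 51.8 CPM in B7low saline. Mvd, the decarboxylase of the same branch, had 22 counts in B7hi saline and 0 in B7low saline, at least 2.65-fold higher against 3 counts over the group (adjusted p = 0.16). Acat2, Mvk, Pmvk and Hsd17b7 were low, with at least 1 library at 0 each and 54 to 154 counts over all libraries. For the squalene synthase Fdft1, levels were 34.8 and 33.9 CPM in B7hi saline, and 1.75 and 10.03 CPM in B7low saline (2.51 ± 0.77, adjusted p = 0.062). The methyl sterol oxidase Msmo1 was at 83.9 and 67.9 against 26.2 and 15.05 CPM (1.87 ± 0.63, adjusted p = 0.094). Both had ranges apart in saline and overlapped with HDM. Lss, which closes squalene epoxide to lanosterol, had its saline ranges the other way, at 37.8 and 52.7 CPM in B7hi and 61.2 and 58.5 CPM in B7low (−0.40 ± 0.38, adjusted p = 0.59). Dhcr7, the last reductase of the path, was at 31.7 and 32.9 CPM in B7hi and 56.0 and 21.7 CPM in B7low (−0.26 ± 0.57, adjusted p = 0.83).

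In count terms, 13 of the 17 tested synthesis enzymes had a positive log2 fold change with saline, with a median of 1.01, and 5 had an unadjusted p under 0.05, as did 14 of all 31 members (45.2%, against 21.2% of all tested genes). With HDM, 14 of 17 were positive, with a median of 0.27. An unadjusted p under 0.05 was then found for 0 of the 17 and for 3 of the 31 (9.68%, against 13.6%). Over all tested genes 51.4% and 52% were positive. Summed over the 18 synthesis enzymes, the level was 997 and 915 CPM in B7hi saline and 442 and 378 CPM in B7low saline. With HDM it was 666, 826 and 1266 CPM in B7hi and 302, 1140 and 638 CPM in B7low. The group means were 956 ± 58.1 and 410 ± 45.6 CPM (SD, n = 2 each), then 919 ± 311 and 693 ± 421 CPM (SD, n = 3 each). The highest B7low HDM library was thus 3.77-fold above the lowest, a wider range than in any other group. Of the 17 tested enzymes, B7hi HDM 3 was the highest of the 10 libraries for 7 and B7low HDM 2 for 6. B7low HDM 1 was the lowest for 8, ties at 0 included. In B7low, 12 and 16 of the 17 were below the enzyme's median over libraries with saline, and 15, 1 and 14 with HDM. In B7hi these counts were 6 and 5, then 11, 4 and 1. B7low HDM 1, at 771519 total counts, and both B7low saline libraries, at 652736 and 639906, had the 3 lowest sums. B7hi HDM 2 had the lowest total, 525983 counts, and a sum of 826 CPM. The part of depth in the low sums was not tested.

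**Figure D2:**
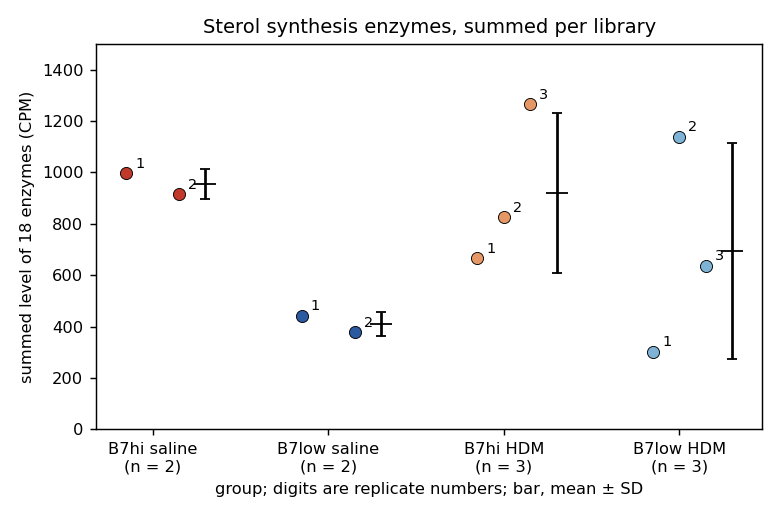
Summed level of the 18 synthesis enzymes in each library, in CPM, by group. Points are libraries, marked with their replicate number, and bars are mean ± SD. The saline groups lie at 378 to 442 CPM in B7low and 915 to 997 CPM in B7hi, while B7low HDM spans 302 to 1140 CPM.

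Among the genes of SREBP control, Insig2, which encodes 1 of the 2 Insig proteins, passed the test (chromosome 1, 121304353 to 121332589). It was at 20.4 and 17.2 CPM in B7hi saline, 1.75 and 5.02 CPM in B7low saline, 31.3, 27.4 and 19.9 CPM in B7hi HDM, and 24.4, 22.1 and 24.01 CPM in B7low HDM. Both B7low saline libraries were thus below all 8 others, which lay between 17.2 and 31.3 CPM. B7hi over B7low was 2.42 ± 0.68 in saline (adjusted p = 0.043), 0.15 ± 0.41 with HDM (adjusted p = 0.92) and 1.29 ± 0.40 in the mean (adjusted p = 0.046). The B7low saline libraries held few Insig2 counts, and the saline call was lost in 16 of 19 alternatives, at an adjusted p of up to 0.32 with limma-voom. The call in the mean was lost in 16 of 18, at up to 0.24, also with limma-voom. Without both libraries that stood apart the values were 3.35 (adjusted p = 0.069) and 1.73 (adjusted p = 0.057).

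Insig1, the other Insig gene and itself a known SREBP target, was at 79.4 and 87.7 CPM in B7hi saline. In B7low saline it was at 19.2 and 45.1 CPM. Those ranges were apart, and the difference did not pass (1.37 ± 0.54, adjusted p = 0.15). Scap was at 24.9 and 27.1 against 6.99 and 11.7 CPM with saline (1.46 ± 0.61, adjusted p = 0.17). Srebf2, the SREBP gene most tied to cholesterol synthesis, had group means within 1.20-fold of each other, and its log2 fold change in saline was −0.17 ± 0.33 (adjusted p = 0.80). Srebf1, the SREBP gene most tied to fatty acid synthesis, ranged from 18.4 CPM in B7low saline 2 to 83.6 CPM in B7hi HDM 3, with 0.40 ± 0.46 in saline (adjusted p = 0.66).

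Scarb1 encodes a scavenger receptor that takes up cholesteryl esters from high-density lipoprotein (chromosome 5, 125277087 to 125341094). It was at 26.5 and 33.4 CPM in B7hi saline and had 0 counts in both B7low saline libraries, where 0 allows up to 5.25 and 5.02 CPM. With HDM, levels were 29.4, 7.83 and 35.6 CPM in B7hi and 23.0, 26.7 and 22.7 CPM in B7low. Scarb1 was therefore counted in all libraries but the 2 of B7low saline. Its lowest level elsewhere was in B7hi HDM 2, from 4 counts. With 99 counts against 0, it was at least 11.9-fold higher in B7hi with saline, against 3 counts over the group (edgeR adjusted p = 0.0027). With HDM the log2 fold change was 0.08 ± 0.47 (adjusted p = 0.96). The call in the mean of both challenges (adjusted p = 0.0030) combines these 2 values. Both calls were kept in all alternatives except limma-voom (adjusted p = 0.13 and 0.090), also without both libraries that stood apart (0.0057 and 0.0032).

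Mylip was at 99.8 and 77.8 CPM in B7hi saline, 292 and 130 CPM in B7low saline, 69.4, 102 and 61.6 CPM in B7hi HDM, and 159, 98.2 and 135 CPM in B7low HDM (chromosome 13, 45389742 to 45412022). The saline groups did not overlap, and with HDM the B7hi library 2 lay above the B7low library 2. B7hi over B7low was −1.25 ± 0.38 in saline (adjusted p = 0.061), −0.77 ± 0.32 with HDM (adjusted p = 0.27) and −1.01 ± 0.25 in the mean (adjusted p = 0.013). The mean did not pass when B7hi saline 2 was left out (−0.93, adjusted p = 0.072), nor when B7low saline 1 was (−0.65, adjusted p = 0.10). Without both libraries that stood apart the value was −1.37 (adjusted p = 0.0018) and the saline contrast passed as well (−1.73, adjusted p = 0.013).

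Soat1, which esterifies cholesterol for storage in droplets, passed in no contrast and was chosen for its values (chromosome 1, 156424525 to 156474331). It was at 96.7 and 153 CPM in B7hi saline, 344 and 209 CPM in B7low saline, 506, 301 and 340 CPM in B7hi HDM, and 381, 375 and 291 CPM in B7low HDM. The 2 B7hi saline libraries were below the other 8. B7hi over B7low was −1.14 ± 0.34 in saline (adjusted p = 0.057) and 0.14 ± 0.27 with HDM (adjusted p = 0.88). The saline difference passed in 6 alternatives, with DESeq2 (adjusted p = 0.013), DESeq2 size factors (0.040) and no count filter (0.032), without B7low saline 2 (0.036) or B7hi HDM 1 (0.035), and without both libraries that stood apart (−1.47, 0.039). HDM over saline was 1.61 ± 0.32 in B7hi (adjusted p = 0.11), which passed with DESeq2 (adjusted p = 2.87e-04), with limma-voom (0.036) and without the count filter (2.84e-04). Stard4, a carrier of sterols between membranes, ranged from 6.69 to 43.6 CPM, both ends in B7low libraries, and passed in no contrast.

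**Figure D3:**
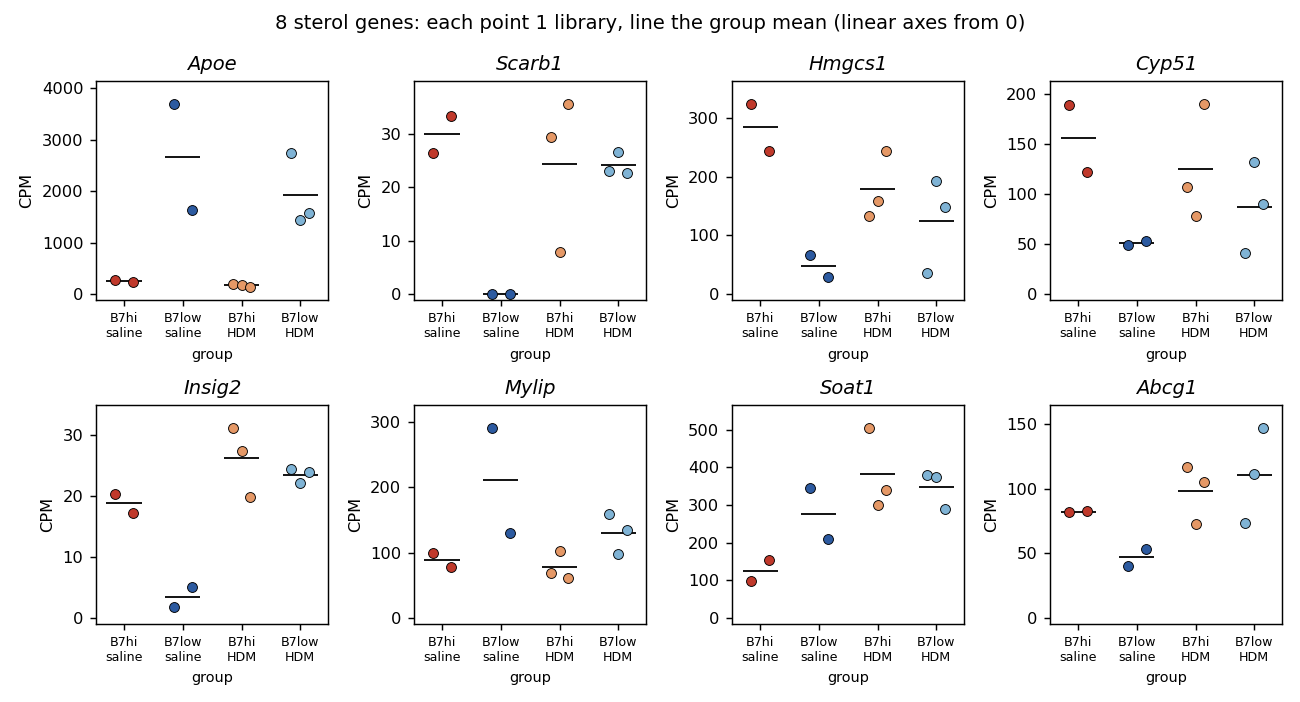
Levels in CPM of 8 members in each library (points), by group, with the group mean as a line; each panel has its own linear axis from 0. Apoe separates the populations under both challenges, Scarb1 and Insig2 are low in B7low saline alone, and Soat1 is low in B7hi saline.

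Apoe encodes a secreted apolipoprotein that carries cholesterol out of cells, and it had the highest level of the members in CPM per kilobase of exon (566, mean of 10 libraries), followed by Mylip at 37.9. It lies on chromosome 7 (19696109 to 19699188). Apoe was at 265 and 236 CPM in B7hi saline and 3695 and 1635 CPM in B7low saline. With HDM it was at 206, 176 and 129 CPM in B7hi and 2738, 1445 and 1569 CPM in B7low. The lowest B7low library was above the highest B7hi library under either challenge. B7hi was lower than B7low by a log2 fold change of −3.41 ± 0.42 with saline (adjusted p = 2.38e-04), −3.49 ± 0.35 with HDM (adjusted p = 4.57e-05) and −3.45 ± 0.28 in the mean (adjusted p = 1.02e-06). All 3 calls held in every alternative run, and without both libraries that stood apart the values were −3.89, −3.53 and −3.71. In bulk RNA, fewer cells with Apoe and less Apoe RNA per cell cannot be told apart.

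Macrophages are a known source of Apoe. The 12 macrophage markers summed to 33.9 to 34.0 CPM in B7hi saline, 27.98 to 35.1 CPM in B7low saline, 13.1 to 37.2 CPM in B7hi HDM and 23.4 to 43.0 CPM in B7low HDM. C1qa, C1qb and Fcgr1 were at 0 in all 10 libraries. Siglec5, the table's symbol for Siglecf, was at 9.49 to 27.7 CPM and made up most of the sum in all libraries but B7low HDM 1 and 2, and each other marker was at 9.76 CPM or less in every library. The sums overlapped between the populations under both challenges, and their part in the Apoe difference was not tested.

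The other genes of LXR and efflux passed in no contrast. Abca1, a transporter that loads lipid onto apolipoproteins, was at 17.5, 27.4 and 23.97 CPM in B7hi HDM and 92.2, 31.9 and 28.4 CPM in B7low HDM. Those ranges were apart, with B7low HDM 1 above the other 9 libraries (−1.13 ± 0.45, adjusted p = 0.25). The 6 endothelial markers summed to 432 CPM in that library and to 59.4 to 176 CPM in the others, and their part in this value was not tested. Abcg1, a transporter to high-density lipoprotein, was at 81.6 and 82.5 CPM in B7hi saline and 40.2 and 53.5 CPM in B7low saline (0.81 ± 0.38, adjusted p = 0.23). Lpcat3, a phospholipid acyltransferase and known LXR target, was at 116 and 84.6 against 31.5 and 46.8 CPM with saline (1.35 ± 0.43, adjusted p = 0.071). Of the LXR receptor genes, Nr1h2 had group means within 1.25-fold of each other, from 53.5 to 88.1 CPM over libraries. Nr1h3 had 1 count in each of 3 libraries and 0 in the other 7. The LXR and efflux members thus did not share a direction in saline, with 3 of 5 tested positive.

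HDM against saline gave 0 called members of 31 in B7hi and in B7low, where 0.00949% of all tested genes passed in each. In B7low, 27 of 31 members had a positive log2 fold change, against 52% of all tested genes, and 10 an unadjusted p under 0.05, all positive (32.3%, against 9.08% of all tested genes). In B7hi, 18 of 31 were positive, against 51.6%, and 2 were under 0.05 (6.45%, against 4.13%). DESeq2 called 1 member in each, Soat1 in B7hi and Scarb1 in B7low. The lowest p in B7low was that of Scarb1, with 94 counts against 0, at least 9.502-fold higher with HDM (adjusted p = 0.098). Insig2 followed at 2.75 ± 0.65 (adjusted p = 0.21), Abcg1 at 1.25 ± 0.36 (adjusted p = 0.31) and Scap at 1.92 ± 0.58 (adjusted p = 0.33). Abcg1 was at 73.2, 111 and 147 CPM in B7low HDM, above both B7low saline libraries. Scap was at 23.0, 24.1 and 58.8 CPM there, also above both. The median of the synthesis enzymes was 0.70 in B7low and 0.09 in B7hi, and in B7low 0 of 17 had ranges apart, against 23.9% of all tested genes. The mean HDM effect over both populations also gave 0 calls, with 9 members under 0.05 unadjusted (29%, against 6.47%). In that mean DESeq2 called Soat1 (0.96, adjusted p = 0.013).

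The interaction subtracts the HDM effect in B7low from that in B7hi and tests whether they differed. It passed for 0 of 31 members and 0% of all tested genes, with 6 members under 0.05 unadjusted (19.4%, against 8.55%). DESeq2 called Scarb1 (adjusted p = 0.030). The smallest edgeR p values were those of Scarb1 (adjusted p = 0.16), Soat1 (1.28 ± 0.43, adjusted p = 0.46) and Insig2 (−2.27 ± 0.80, adjusted p = 0.46). The saline population contrast, the HDM contrast in B7low and the interaction share the 2 B7low saline libraries, so that low values there enter all 3.

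**Figure D4:**
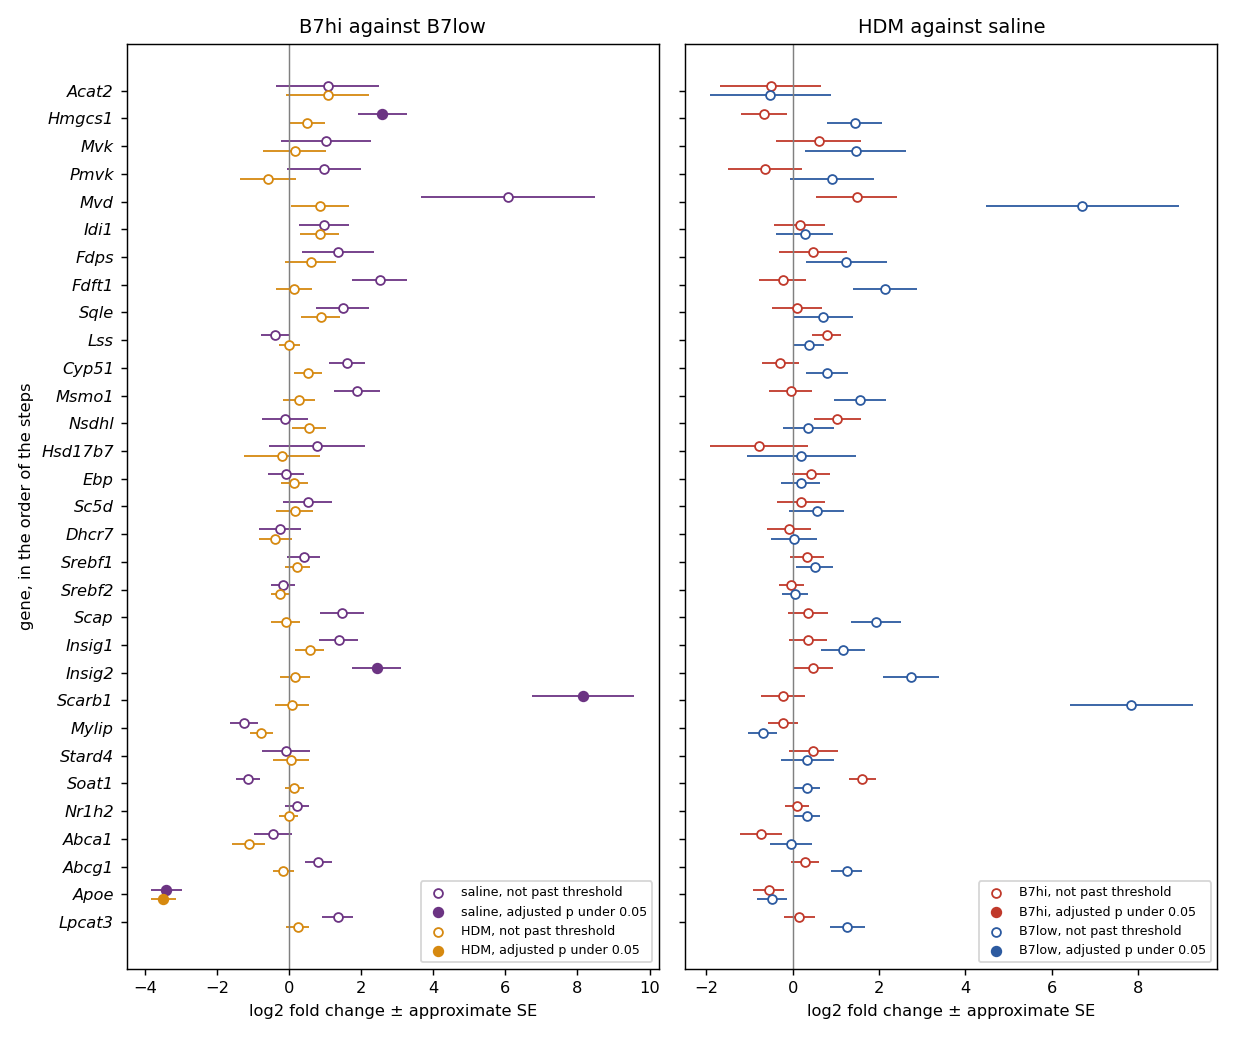
Log2 fold change of each tested member for B7hi against B7low (left, by challenge) and HDM against saline (right, by population), with approximate SE. Filled points passed the edgeR test, with 5 on the left and 0 on the right. The fitted values of Scarb1 and Mvd against B7low saline, where both had 0 counts, depend on the prior count and are not sizes of effect.

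Genes next to the members in lipid metabolism were described from 3 further lists. Of 12 tested genes of fatty acid synthesis and desaturation, 2 were higher in B7hi with saline and 0 lower (16.7%, against 6.54% of all tested genes). In the mean of both challenges 2 were higher and 0 lower (16.7%, against 11.9%). Acss2, which makes acetyl-CoA from acetate, was at 150 and 108 CPM in B7hi saline and 40.2 and 31.8 CPM in B7low saline (1.84 ± 0.38, adjusted p = 0.0068). With HDM it was at 101, 99.8 and 96.6 CPM in B7hi and 36.6, 54.6 and 74.6 CPM in B7low. All 5 B7hi libraries were above all 5 B7low libraries, and the mean of both challenges was 1.33 ± 0.24 (adjusted p = 0.0013). The saline difference did not pass with B7hi saline 1 left out (adjusted p = 0.086) or without both libraries that stood apart, and the call in the mean was lost in 0 of 18 alternatives. The desaturase Fads1 passed with saline (1.50 ± 0.43, adjusted p = 0.045), a call lost in 13 of 19 alternatives. The elongase Elovl5 passed in the mean (0.92 ± 0.24, adjusted p = 0.017), a call lost without B7hi saline 1 (0.15), without B7low saline 2 and without both libraries that stood apart.

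Of 21 tested other sterol genes, Gramd1b was lower in B7hi with saline (−1.85 ± 0.46, adjusted p = 0.024), with HDM (−1.49 ± 0.35, adjusted p = 0.031) and in the mean (−1.67 ± 0.29, adjusted p = 0.0012). It encodes a carrier of cholesterol from the plasma membrane to the endoplasmic reticulum. Gramd1b was at 14.4 and 14.1 CPM in B7hi saline, 68.2 and 35.1 CPM in B7low saline, 33.8, 25.4 and 18.5 CPM in B7hi HDM, and 65.1, 61.1 and 92.3 CPM in B7low HDM. As for Apoe, all 5 B7low libraries were above all 5 B7hi libraries. The call in the mean held in all 18 alternatives, the saline call in 15 of 19 and the HDM call in 15 of 19. Its relative Gramd1c was lower in the mean (−1.30 ± 0.38, adjusted p = 0.035), a call lost in 9 of 18. Calls made up 4.76% of this list with saline, 4.76% with HDM and 9.52% in the mean. Over all tested genes these shares were 6.54%, 2.84% and 11.9%. Of 16 tested genes that use isoprenoids, Fnta, a shared subunit of the prenyltransferases, was lower in the mean (−1.29 ± 0.39, adjusted p = 0.040), a call lost in 8 of 18. That was 6.25% of the list, against 11.9% of all tested genes. None of the 3 lists had a call for HDM or the interaction with edgeR.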

How the data were processed

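The authors deposited unnormalised read counts per gene symbol and library, from SmartSeq2 libraries of sorted cells, per the labels' protocols. Reads were paired and 25 nt long. TopHat2 2.0.10, Cufflinks 2.2.1, DESeq2 and mm10 appear in the submitters' processing notes without a role. How reads were counted, with which annotation and whether by strand, is not given in the sources used here, so reads of overlapping antisense genes cannot be told apart. Groups and replicate numbers come from the sample titles. The members, lists, rule for named genes and alternatives were chosen with earlier results of these data known. Members that passed in any contrast were described in full, and the others by step. Genes that passed filterByExpr were TMM-scaled and tested in edgeR 4.0.16 (R 4.3.3, robust quasi-likelihood, 1 mean per group, all 10 libraries). All 7 contrasts were two-sided, with Benjamini-Hochberg adjustment over 10533 genes, and the method was tested on simulated data. Each SE is approximate, the fold change on the log2 scale divided by the square root of F. CPM was computed from TMM-scaled library sizes, and levels between genes per kilobase of GENCODE M21 exon union. Alternatives were other scalings, DESeq2 1.42.0, limma-voom (limma 3.58.1), other filters, a replicate block, only the groups of a contrast, and libraries left out. Pairs of libraries within groups differed beyond sampling noise (chi-square per degree of freedom 6.74 to 11.1).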

Additional observations from a re-analysis of the deposited data

How the results depend on the processing

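No member changed direction against a called value in any of the alternatives run. The count of called members for saline, 4 in the text, was 7 with library size alone, 1 with limma-voom and 12 without the count filter. With DESeq2 size factors it was 3, with 1 higher and 2 lower in place of 3 and 1. It was 2 to 7 with each library left out, with 2 without B7hi saline 1 or 2, B7low saline 1, B7hi HDM 2 or B7low HDM 3, and 7 without B7low HDM 1. For HDM between populations, 1 became 1 to 2 with each library left out, with Idi1 added without B7low HDM 2. The mean population count of 6 was 3 with limma-voom, 12 without the count filter, 3 without both B7low saline 2 and B7hi HDM 2, and 2 to 12 with each library left out. It was 2 without B7hi saline 2, 3 without B7hi saline 1, B7low saline 1, B7hi HDM 3 or B7low HDM 3, and 12 without B7low HDM 2. DESeq2 gave 1 call in place of 0 for HDM in B7hi, HDM in B7low, the interaction and the mean HDM effect, and limma-voom 1 for HDM in B7hi. Without the count filter these 4 counts were 1, 4, 2 and 3. The cause was not tested.

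Libraries with the same replicate number were not treated as pairs in the main tests. The correlation of deviations between same-numbered libraries was 0.04 for saline and 0.02, −0.11 and −0.05 for HDM. These values cannot tell whether the libraries were paired. With 2 saline libraries per group the deviations mirror each other. For HDM, pairs of unlike number ran from −0.12 to 0.20, a range that holds the same-numbered values. With the replicate block, the mean population count was 10 in place of 6, and the other member counts were within 1.5 times. Counts over all genes moved too. Without the count filter they were 1078 for saline (689 in the text), 548 for HDM between populations (299), 89 and 112 for HDM in B7hi and B7low (1 each), 143 for the interaction (0) and 83 for the mean HDM effect (1). DESeq2 gave 476, 53, 20, 40 and 25 for the last 5 of these contrasts, and limma-voom 9 for HDM in B7hi. Using only the saline groups gave 370. With each library left out, counts were 226 to 685 for saline, 137 to 368 for HDM between populations, 659 to 1163 for the mean population contrast and at most 13 for the others. For the HDM contrasts and the interaction, the other alternatives gave at most 6 genes. Library size alone moved the median of all genes from 0.03 to 0.30 in saline, where 67.9% of calls were then higher in B7hi against 44.4% in the text. With the longest transcript in place of the exon union, Hmgcs1 (45.5 CPM per kilobase) stood above Mylip (40.0), the reverse of the text. Few counts limit several members, with Insig2 at 4 counts, Fdft1 at 7 and Scarb1 and Mvd at 0 over the B7low saline group.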
